A study of Mus musculus with 10 samples.

Results

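The genes followed here encode enzymes of heme synthesis, taken in the order of the pathway: *Alas1*, *Alas2*, *Alad*, *Uros*, *Urod*, *Cpox*, *Ppox* and *Fech*. These 8 genes were chosen by name and pathway step from the 10431 genes of the deposited table, with no cut on their values. Earlier results of these data were known when they were chosen. RNA sequencing was done on whole blood of female C57BL/6J mice (C57BL6 in the sample labels), 5 in the weight gain-prone cohort (AIWG-P) and 5 in the weight gain-resistant cohort (AIWG-R). AIWG-P are the mice that gained the most weight, and AIWG-R those that gained the least, during 14 days on a high-fat chow (45% of kcal as fat) that contained olanzapine, an antipsychotic drug. All mice of both cohorts carry the same wild-type background, were bought at 9 weeks of age, began the high-fat diet at 10 weeks, and were treated alike; the series text places 3 days on that diet without the drug before olanzapine. The cohorts therefore differ in their outcome and in no allele or agent. Per the study's methods, the sequenced blood was baseline blood drawn before the diet, while the treatment field of the sample labels names the olanzapine diet; the samples are read as baseline blood here. The mice are named P1, P3, P5, P7 and P8 (AIWG-P) and R1, R2, R4, R8 and R9 (AIWG-R), after the numbers in the labels.

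Heme is built in a path that begins and ends in the mitochondrion. ALA synthase condenses glycine with succinyl-CoA to 5-aminolevulinate (ALA), cytosolic enzymes join ALA into a porphyrin ring and trim it, and the last enzymes oxidize the ring in the mitochondrion and insert ferrous iron. ALA synthase has a ubiquitous form encoded by *Alas1* and an erythroid form encoded by *Alas2*, which is X-linked. In blood, the young red cells called reticulocytes still hold mitochondria and RNA and finish heme and hemoglobin synthesis there, whereas mature red cells have lost both.

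Promoter sequence is shown for both ALA synthases and for 2 later enzymes, since *Alas2* and *Urod* varied together from mouse to mouse and *Alas1* and *Cpox* did not follow them, as described below. Each run holds the bases from 250 to 51 before the RefSeq start of the gene (build GRCm38.p6), 5′ to 3′ on the strand of the gene. Capitals mark GATAA, the core that GATA factors such as GATA1 bind, on either strand (TTATC where it lies on the other strand).
*Alas1* (chr9:106248005-106248204, minus strand): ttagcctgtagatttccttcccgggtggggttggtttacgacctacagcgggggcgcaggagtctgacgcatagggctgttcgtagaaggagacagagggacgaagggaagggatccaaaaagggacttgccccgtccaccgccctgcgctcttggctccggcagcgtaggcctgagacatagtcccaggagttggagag
*Alas2* (chrX:150547167-150547366, plus strand): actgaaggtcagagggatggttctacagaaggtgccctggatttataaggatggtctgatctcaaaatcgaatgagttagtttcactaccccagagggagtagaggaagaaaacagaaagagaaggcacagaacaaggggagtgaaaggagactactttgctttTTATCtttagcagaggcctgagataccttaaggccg
*Urod* (chr4:116994464-116994663, minus strand): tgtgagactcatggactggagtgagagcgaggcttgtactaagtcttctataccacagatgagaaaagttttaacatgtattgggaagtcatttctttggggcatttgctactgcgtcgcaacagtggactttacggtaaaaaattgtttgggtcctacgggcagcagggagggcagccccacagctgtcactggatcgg
*Cpox* (chr16:58669958-58670157, plus strand): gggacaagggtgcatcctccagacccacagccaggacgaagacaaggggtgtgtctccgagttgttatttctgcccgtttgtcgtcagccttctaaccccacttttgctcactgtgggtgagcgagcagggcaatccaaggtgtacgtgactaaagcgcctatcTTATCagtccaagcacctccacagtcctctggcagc

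Among the 250 bases before the start, GATAA on either strand was found 1 time in *Alas2* and 1 time in *Cpox*, in both cases 86 bases before the start, and 1 time in the second of the *Uros* promoters, and it was not found in the windows of *Alas1*, *Alad*, *Urod* and *Ppox*. GATAA occurs in 22.6% of 32851 promoter windows of this length. CACCC on either strand, the core bound by KLF1-like factors, was found 3 times in *Alas2* and 4 times in *Cpox*, 1 time in each of 2 *Alas1* promoters and 1 time in the second *Alad* promoter, against 52.0% of all windows with at least 1 copy. The TATAA motif lay in the *Alas2* window on both strands at overlapping positions, 208 and 207 bases before the start, and 22.8% of all windows hold it. Promoters of 7 of the 8 genes were matched in the RefSeq table, so the counts above leave out *Fech*, and these matches describe letters only. The transcript of *Alas2* also carries an iron-responsive element in its 5′ UTR, the hairpin by which iron regulatory proteins hold back its translation. It is shown with the CAGTG of its loop in capitals (chrX:150547461-150547483, plus strand, GRCm38, GENCODE M21 annotation).
*Alas2* iron-responsive element: gttcgtcctCAGTGcagggcaac

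The deposited values are normalized values per gene and mouse, and their total lay between 22353520 and 45642066 in AIWG-P mice and between 16909806 and 30472510 in AIWG-R mice. Globin genes took 78.2 to 87.5% of the total in AIWG-P mice and 75.0 to 83.2% in AIWG-R mice, while the median gene stayed between 142.9 and 145.7 in all 10 mice. P8 had the highest and R9 the lowest total and globin share. The labelled tissue was checked with 16 red cell membrane genes, all of which were detected: their mean log2 value was 8.09 to 8.73 in AIWG-P mice and 7.06 to 8.35 in AIWG-R mice, with R9 lowest, and 12 of the 16 were higher in AIWG-P and 0 lower. Higher and lower follow the rule of the next paragraph, by which 4.06% of all genes tested were higher and 3.23% lower. Of the marker lists of leukocytes and platelets, *Ngp* alone of 7 neutrophil genes was higher and *Ncr1* alone of 7 NK cell genes was lower in AIWG-P, and 0 of 8 monocyte, 8 platelet, 3 eosinophil, 7 B cell and 8 T cell genes passed both thresholds (limma). At an unadjusted limma p under 0.05, 1 of these B cell genes was lower in AIWG-P. Of the monocyte, platelet, eosinophil and T cell lists 0 genes passed that threshold, where 12.8% of all genes tested did. With so few genes in a list, 0 calls do not show that a cell type was equal between the cohorts. In bulk blood, fewer cells of a type and less RNA per cell cannot be told apart.

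The cohorts were compared to ask which enzyme genes differ in blood between mice that later gained much or little weight. A gene was called higher or lower when limma, fitted to log2 of the value plus 1 over all 10429 genes tested, gave an unadjusted *p* under 0.05 and a log2 fold change beyond 0.32 in either direction, which is a ratio of 5 to 4. By this rule *Urod* and *Fech* were higher in AIWG-P and 0 of the 8 enzyme genes were lower, where 4.06% of all genes tested were called higher, 3.23% lower and 7.29% either. At an unadjusted *p* under 0.05 alone, which 12.8% of all genes tested met, the enzymes gave the same counts, 2 positive and 0 negative. In none of the 8 enzymes did the cohorts separate fully, as they did with AIWG-P above in 1.11% and AIWG-P below in 1.44% of all genes tested. The median log2 fold change of the 8 enzymes was 0.08, against -0.01 over all genes, with 4 positive and 4 negative. After Benjamini-Hochberg adjustment over all genes, 0 of 10429 genes had an adjusted *p* under 0.05, where 1340 had an unadjusted *p* under 0.05.

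**Figure D1:**
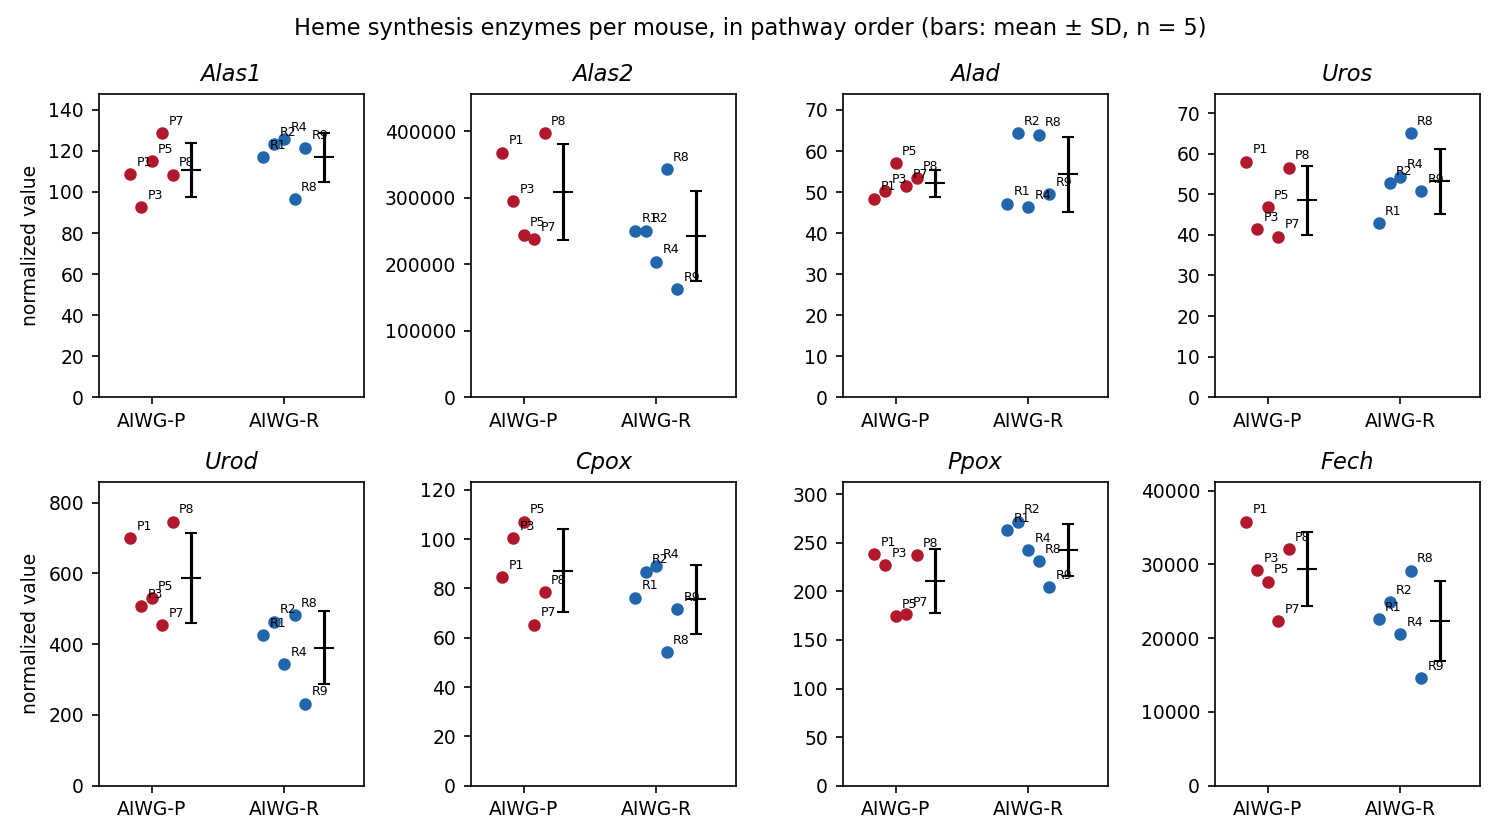
Normalized value of each enzyme gene in each mouse (y axis, starting at 0 in each panel), with AIWG-P in red and AIWG-R in blue, points named by mouse, and mean ± SD drawn beside each cohort (n = 5). For *Urod*, 4 of the 5 AIWG-P mice lie above every AIWG-R mouse; *Alas1*, *Alad* and *Uros* overlap across their range.

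**Figure D2:**
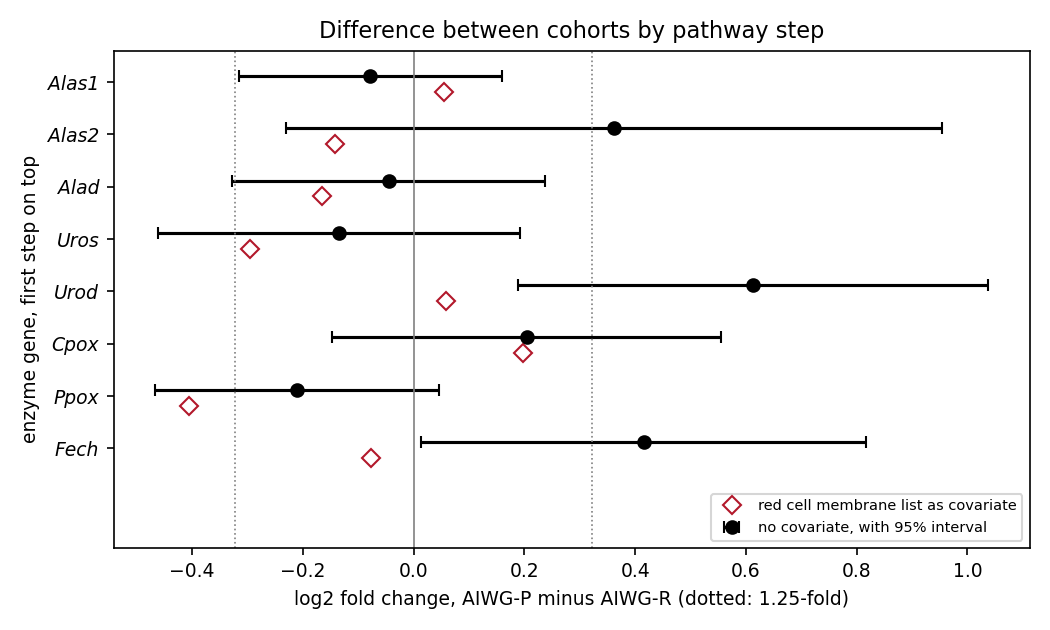
Log2 fold change (AIWG-P minus AIWG-R) of each enzyme from the first step (top) to the last. Black points with 95% intervals are from the fit with no covariate; the intervals of *Urod* (0.19 to 1.04) and *Fech* (0.01 to 0.82) lie above 0. Open red diamonds are from the fit that adjusts for the mean of the red cell membrane list, where *Urod* stands at 0.06 and *Fech* at -0.08.

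At the first step, neither the erythroid nor the ubiquitous ALA synthase gave a cohort difference that passed the test, and mice spread more widely in the erythroid form. *Alas2* read 367707, 294671, 244394, 237203 and 396959 in P1, P3, P5, P7 and P8, against 250340, 250426, 203601, 342846 and 162483 in R1, R2, R4, R8 and R9. P8 and P1 were above all AIWG-R mice, R4 and R9 were below all AIWG-P mice, and the other 6 mice overlapped. The mean was 308187 ± 71962 in AIWG-P and 241939 ± 67283 in AIWG-R (SD, n = 5 each), a log2 fold change of 0.36 (SE 0.27, 95% interval -0.23 to 0.95) that did not pass the threshold (limma *p* = 0.21, adjusted *p* = 0.568; exact permutation *p* = 0.159). The *Alas2* interval ran from 0.852- to 1.94-fold on the linear scale.

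*Alas1*, which supplies the heme of cytochromes and other enzymes in most cells, read 108.8, 92.7, 114.9, 128.7 and 108.4 in P1, P3, P5, P7 and P8, against 116.9, 123.4, 125.6, 96.5 and 121.7 in R1, R2, R4, R8 and R9. Both cohorts covered almost the same range, with the lowest and the highest mouse of all 10 in AIWG-P. The mean was 110.7 ± 13.0 in AIWG-P and 116.8 ± 11.8 in AIWG-R (SD, n = 5 each), a log2 fold change of -0.08 (SE 0.11, 95% interval -0.32 to 0.16; limma *p* = 0.487, exact permutation *p* = 0.452). Per kb of exon, the level of *Alas2* was between 3583 and 7117 times that of *Alas1* (median 6175) in AIWG-P mice and between 2596 and 6902 times (median 3945) in AIWG-R mice. *Alas2* alone made up 4.96 to 6.93% of all values outside the globins in AIWG-P mice and 3.84 to 6.71% in AIWG-R mice. In the annotation used here, 15.3% of the exon bases of *Alas2* are shared with *Apex2* on the opposite strand, and the sources used here do not state whether counting used the strand. A further 2.99% overlap the microRNA gene *Mir3620*, and 11.7% of the *Alas1* exon bases overlap *4930500F10Rik*, all on the opposite strand.

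*Alad* and *Uros*, which act in the cytosol, gave no difference that passed the test. *Alad* encodes ALA dehydratase, which joins ALA into porphobilinogen, and it read 48.3, 50.2, 57.0, 51.5 and 53.4 in P1, P3, P5, P7 and P8, against 47.2, 64.4, 46.3, 64.0 and 49.5 in R1, R2, R4, R8 and R9. The AIWG-P mice lay within the range of the AIWG-R mice, which split into R2 and R8 above and R1, R4 and R9 near or below the lowest AIWG-P mouse. Its coefficient of variation was 6.39% in AIWG-P mice and 16.8% in AIWG-R mice, and the log2 fold change was -0.05 (SE 0.13, 95% interval -0.33 to 0.24; limma *p* = 0.735, exact permutation *p* = 0.69). *Uros* encodes uroporphyrinogen III synthase, which closes the ring, and it read 58.0, 41.5, 46.9, 39.6 and 56.6 in P1, P3, P5, P7 and P8, against 42.9, 52.7, 54.3, 65.1 and 50.8 in R1, R2, R4, R8 and R9. P3 and P7 were below all AIWG-R mice and R8 was above all AIWG-P mice. The log2 fold change of *Uros* was -0.13 (SE 0.15, 95% interval -0.46 to 0.19; limma *p* = 0.389, exact permutation *p* = 0.373).

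*Urod* encodes uroporphyrinogen decarboxylase, the cytosolic enzyme that removes carboxyl groups from the ring, and it had the largest difference of the 8 genes. It read 699.8, 507.3, 530.6, 453.4 and 746.3 in P1, P3, P5, P7 and P8, against 425.9, 463.1, 343.0, 482.7 and 232.0 in R1, R2, R4, R8 and R9. Of the AIWG-P mice, 4 of 5 were above every AIWG-R mouse, and P7 was above 3 of them. The mean was 587.5 ± 127.95 in AIWG-P and 389.3 ± 102.9 in AIWG-R (SD, n = 5 each), a log2 fold change of 0.61 (SE 0.20, 95% interval 0.19 to 1.04), or 1.53-fold. The limma *p* was 0.00809 with an adjusted *p* of 0.325, and the exact permutation *p* was 0.0238. The call remained when each mouse was left out in turn (log2 fold change 0.44 to 0.70). In a fit that adjusts for the mean of the red cell membrane list, the log2 fold change of *Urod* was 0.06 and the gene was not called.

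Relative to *Alas2* in the same mouse, *Urod* stood at 1.90, 1.72, 2.17, 1.91 and 1.88 per 1000 of the *Alas2* value in P1, P3, P5, P7 and P8, against 1.70, 1.85, 1.68, 1.41 and 1.43 in R1, R2, R4, R8 and R9. On this ratio R2 exceeded P3, and otherwise AIWG-P mice were above AIWG-R mice. The ratio was computed after the values of both genes had been seen and is given without a test. It is uncorrected for length, as is the share of *Fech* below, and compares mice only.

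The mitochondrial oxidases after *Urod* pointed in opposite directions, and neither difference passed the test. *Cpox* encodes coproporphyrinogen oxidase of the intermembrane space and read 84.6, 100.4, 107.1, 65.3 and 78.6 in P1, P3, P5, P7 and P8, against 76.2, 86.7, 89.1, 54.2 and 71.5 in R1, R2, R4, R8 and R9. P3 and P5 were above all AIWG-R mice, R8 was below all AIWG-P mice, and the log2 fold change was 0.20 (SE 0.16, 95% interval -0.15 to 0.56; limma *p* = 0.232, exact permutation *p* = 0.278). *Ppox* encodes protoporphyrinogen oxidase of the inner membrane and read 238.1, 226.9, 174.3, 176.2 and 237.2 in P1, P3, P5, P7 and P8, against 262.9, 271.8, 242.3, 231.0 and 204.4 in R1, R2, R4, R8 and R9. All 5 AIWG-P mice were below the AIWG-R median, and R1, R2 and R4 were above all AIWG-P mice. The log2 fold change of *Ppox* was -0.21 (SE 0.12, 95% interval -0.47 to 0.05; limma *p* = 0.1; exact permutation *p* = 0.151).

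Values of *Ppox* depended on how red cell RNA was treated. When the totals used for scaling excluded the globins its log2 fold change was -0.35, and after adjustment for the red cell list it was -0.41, and under both settings it was called lower in AIWG-P. Leaving the globins out also moved the median of all genes by -0.14 and put 11.6% of all genes tested among those called lower, so that 1 of 8 enzymes is near the share of all genes; after adjustment for the red cell list 2.32% of all genes were called lower.

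*Fech* encodes ferrochelatase, which inserts iron into protoporphyrin on the inner mitochondrial membrane. It read 35810.3, 29239, 27679, 22264 and 32074 in P1, P3, P5, P7 and P8, against 22590.4, 24896, 20587, 29148 and 14536 in R1, R2, R4, R8 and R9. P1, P8 and, narrowly, P3 were above all AIWG-R mice, while P7 was below R1, R2 and R8 and R9 was the lowest of all. The mean was 29413 ± 5054 in AIWG-P and 22351 ± 5407 in AIWG-R (SD, n = 5 each), a log2 fold change of 0.42 (SE 0.19, 95% interval 0.01 to 0.82), or 1.33-fold. The limma *p* was 0.0439, with an adjusted *p* of 0.382, and the exact permutation test did not pass (*p* = 0.0794). The call of *Fech* held in 3 of 10 fits with 1 mouse left out (without P7, R2 or R8) and was lost when P1, P3, P5 or P8, or else R1, R4 or R9, was left out; over the 10 fits the log2 fold change was 0.27 to 0.52. As a share of *Alas2* in the same mouse, *Fech* was 8.08 to 11.3% in AIWG-P mice and 8.50 to 10.1% in AIWG-R mice, so the AIWG-R range lay within that of AIWG-P.

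Divided by the exon length of each gene in GENCODE M21, the normalized levels ran from *Alas2* through *Fech*, *Urod*, *Ppox*, *Alad*, *Alas1* and *Cpox* to *Uros*. *Alas2* averaged 151294 ± 35328 per kb in AIWG-P and 118772 ± 33030.4 per kb in AIWG-R, rank 5 of 10373 genes with a length. *Fech* followed with 4086 ± 702 per kb in AIWG-P and 3105 ± 751 per kb in AIWG-R at rank 111, *Urod* with 394.5 ± 85.9 per kb in AIWG-P and 261.5 ± 69.1 per kb in AIWG-R at rank 778, and *Ppox* with 115.6 ± 17.9 per kb in AIWG-P and 133.2 ± 14.7 per kb in AIWG-R at rank 2160 (SD, n = 5 each). The lowest mouse of *Fech* was above the highest of *Urod*, and the lowest of *Urod* was above the highest of *Ppox*, at 155.8 against 149.2 per kb. *Alad* lay at rank 5548, and its lowest mouse, at 36.4 per kb, was above the highest of *Alas1*, at 32.5 per kb. *Alas1* at rank 6785, *Cpox* at 7051 and *Uros* at 7669 overlapped with each other over mice, so their order is not larger than their spread. *Alas2* and *Fech* were the highest of the 8 genes in every mouse.

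The enzymes also differed in how much they varied between mice. The highest mouse was 3.22 times the lowest for *Urod*, 2.46 times for *Fech* and 2.44 times for *Alas2*, against 1.97 times for *Cpox*, 1.64 for *Uros*, 1.56 for *Ppox* and 1.39 for both *Alad* and *Alas1*. Within cohorts, the residual SD of *Urod*, *Alas2* and *Fech* stood at the 86.8, 85.9 and 78.8 percentile of all genes tested, and that of *Alas1* at the 30.5 percentile.

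The same 3 genes varied together. After the cohort mean was taken from each log2 value, Pearson's r over the 10 mice was 0.94 between *Urod* and *Fech* (Spearman's rho 0.88, permutation *p* = 3e-05), 0.92 between *Alas2* and *Urod* (rho 0.93, permutation *p* = 0.00019) and 0.92 between *Alas2* and *Fech* (rho 0.95, permutation *p* = 0.00015). Adjusted over the 28 pairs, the Pearson *p* was 0.00084 for *Urod* with *Fech* and 0.00177 for each of the others, and the Spearman *p* was 0.0168, 0.00644 for *Alas2* with *Urod* and 0.00392 for *Alas2* with *Fech*. Without the 2 mice farthest from the median of the first gene, r was 0.83, 0.91 and 0.85 for these pairs, in the same order. None of the other 25 pairs had an adjusted permutation *p* under 0.05. Among them *Urod* and *Ppox* had r = 0.72 (rho 0.60), *Alas2* and *Ppox* r = 0.69 (rho 0.68), and *Alas1* and *Alas2* r = -0.62 (rho -0.68), with adjusted Pearson *p* of 0.152, 0.152 and 0.2 by permutation. *Cpox* had r between -0.32 and 0.22 with every other enzyme, but these values rested on few mice: with *Urod*, r was -0.10 over all mice and -0.74 without P7 and R9.

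**Figure D3:**
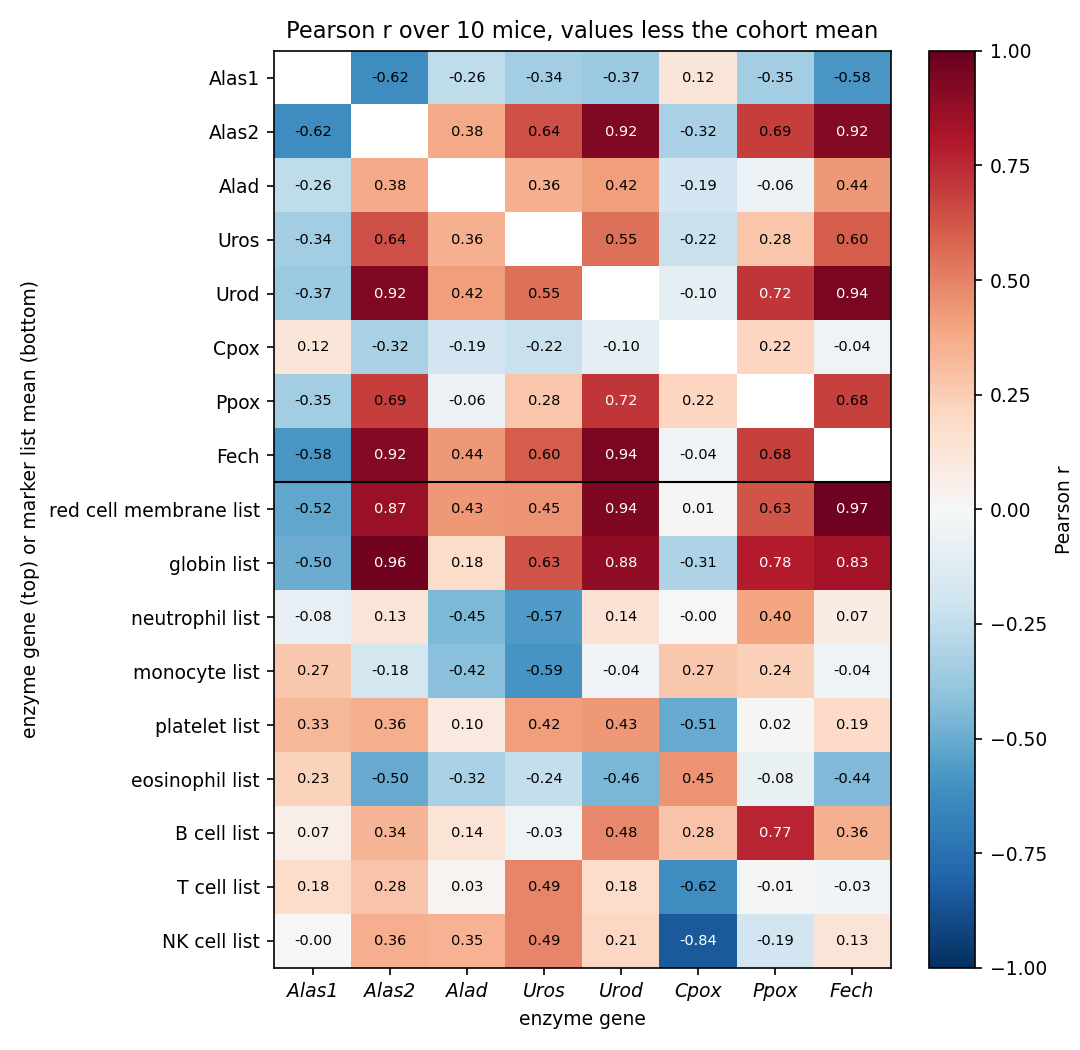
Pearson's r over the 10 mice, after the cohort mean was taken from each log2 value, between enzyme genes (upper block, rows and columns in pathway order) and between the mean of each marker list (lower block, rows) and each enzyme (columns). Red is positive and blue negative. *Alas2*, *Urod* and *Fech* form dark red cells with each other and with the red cell membrane and globin lists (r of 0.83 to 0.97). *Cpox* forms a dark blue cell with the NK cell list (r = -0.84).

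Levels of the red cell genes moved with the same 3 enzymes. The mean of the 16 red cell membrane genes had r = 0.97 with *Fech* (rho 0.98), 0.94 with *Urod* (rho 0.85) and 0.87 with *Alas2* (rho 0.89), with adjusted permutation *p* of 0.00144, 0.00264 and 0.00342 (Pearson) and 0.00288, 0.0349 and 0.0238 (Spearman) over 72 pairs of 9 marker lists with 8 enzymes. Without P7 and R9, the mice farthest from the median of the list, r was 0.92, 0.82 and 0.83. The 4 globin genes had r = 0.96 with *Alas2*, 0.88 with *Urod* and 0.83 with *Fech* (adjusted permutation *p* of 0.00216, 0.00821 and 0.0283 for Pearson's r, rho 0.96, 0.88 and 0.87). All values of a mouse come from one library and one normalization, which these correlations share, and the marker pairs were added after the data had been seen. *Alas1* had r = -0.52 with the red cell list and -0.50 with the globins, neither with an adjusted permutation *p* under 0.05 (0.539 for both).

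**Figure D4:**
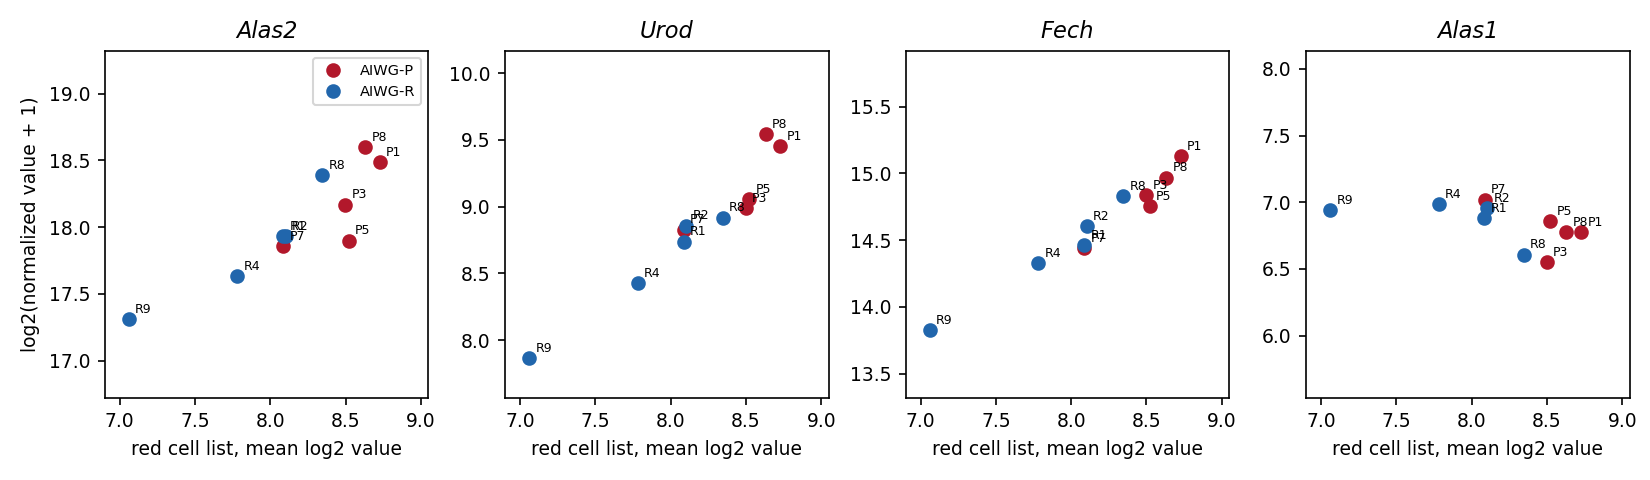
Log2 of the normalized value plus 1 (y axis, spanning the same log2 width in each panel) against the mean log2 value of the 16 red cell membrane genes (x axis) in each mouse, AIWG-P in red and AIWG-R in blue. *Alas2*, *Urod* and *Fech* climb with the list, with R9 lowest in each, and *Alas1* does not.

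Of the enzymes outside this group, *Ppox* had r = 0.78 with the globins and 0.77 with the mean of 7 B cell genes (rho 0.75 and 0.71), with adjusted permutation *p* of 0.0837 and 0.0787. *Cpox* had r = -0.84 with the mean of 7 NK cell genes (rho -0.73; adjusted permutation *p* of 0.0294 for r and 0.156 for rho), and r was -0.58 without P7 and R8. *Cpox* also had rho = -0.84 with the mean of 8 T cell genes (adjusted permutation *p* of 0.0368), where r was -0.62 with an adjusted *p* of 0.35. With the red cell list, *Cpox* had r = 0.01 over all mice and -0.83 without P7 and R9.

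Likeness of pattern was described over all genes tested with a mean above the median (5214 candidates), as Pearson's r of cohort-centred log2 values over 10 mice. The genes most like *Alas2* were *Pla2g16*, *Sh3glb1* and *Gabarapl2*, the last an autophagy gene, all at r = 0.99. Those most like *Urod* were *Ptp4a3*, *Fam210b*, a mitochondrial protein gene, and *Mpp1*, a red cell membrane palmitoylated protein gene, all at r = 0.99. *Fech* was most like *Bsdc1* (r = 0.996), *Slc38a5*, an amino acid transporter gene, and *Usp15* (both 0.99). Among the genes most like *Ppox* were *Pim1* (0.98) and *Mbd6* (0.94), and among those most like *Cpox* were *Scrib* (0.90) and *Pax5* (0.89), the B cell lineage factor. The nearest genes of *Alas1* (*Tomm20*, *Txndc11* and *Acadm*), *Alad* (*Dhx30*, *Lrrc61* and *Nolc1*) and *Uros* (*Brf1*, *Pitrm1* and *Tceb1*) had r between 0.83 and 0.90.

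Of 10 tested genes for carriers that serve heme synthesis in the mitochondrion, *Slc25a37* (mitoferrin 1, the erythroid iron importer of the inner membrane) was higher in AIWG-P and 0 were lower, with a median log2 fold change of 0.10. Over all genes tested, 4.06% were called higher and 3.23% lower. *Slc25a37* averaged 12671 ± 3117 in AIWG-P and 8599 ± 2624 in AIWG-R (SD, n = 5 each), a log2 fold change of 0.58 (SE 0.22, limma *p* = 0.0201, adjusted *p* = 0.343; exact permutation *p* = 0.0794). *Tmem14c*, which brings protoporphyrinogen to the inner membrane, had a log2 fold change of 0.23 with a limma *p* of 0.0263, under the fold threshold. *Slc25a39*, a mitochondrial glutathione carrier gene, had 0.42 with a limma *p* of 0.0855. The count of carriers was 0 without P1, without R4 or without R9, where *Slc25a37* lost its call, and 2 without P7 or without R8, where *Slc25a39* joined it.

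Iron-sulphur clusters are built in the same organelle, and mammalian FECH carries one. Of 14 assembly genes tested, 5 were higher in AIWG-P (*Glrx5*, *Hscb*, *Bola3*, *Iscu* and *Isca1*), 0 were lower, and the median log2 fold change was 0.19. The shares over all genes tested were 4.06% higher and 3.23% lower. *Glrx5*, the glutaredoxin that hands on newly made clusters, averaged 1444 ± 362 in AIWG-P and 914.2 ± 248.6 in AIWG-R (SD, n = 5 each), a log2 fold change of 0.68 (SE 0.22, limma *p* = 0.00793, adjusted *p* = 0.325; exact permutation *p* = 0.0238), with 4 of 5 AIWG-P mice above every AIWG-R mouse. *Hscb*, the co-chaperone of cluster transfer, had 0.62, *Bola3*, a late-acting assembly factor gene, 0.60, *Iscu*, the scaffold, 0.57, and *Isca1*, a late-acting assembly factor gene as well, 0.46 on the log2 fold scale. *Isca1* lost its call without P1, P8, R4 or R9.

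Genes of iron supply gave 1 of 9 higher in AIWG-P, *Ncoa4*, the receptor that brings ferritin to autophagy (log2 fold change 0.44, SE 0.18, limma *p* = 0.0285, exact permutation *p* = 0.0714), and 0 lower. Among all genes tested, 4.06% were called higher and 3.23% lower. *Pcbp1*, an iron chaperone gene, had 0.18 with a limma *p* of 0.0318, under the fold threshold, and *Ftl1*, ferritin light chain, had 0.42 with a limma *p* of 0.0739. *Tfrc*, the transferrin receptor that loads iron into erythroid precursors, averaged 189.1 ± 39.1 in AIWG-P mice and 198.6 ± 6.5 in AIWG-R mice (SD, n = 5 each; log2 fold change -0.10, exact permutation *p* = 0.659); it and the iron regulatory protein genes below were picked for their role after their values had been seen. The count of supply genes rested on single mice: it was 0 without P1, without R4 or without R9, and 2 without P5 or R8 (*Ncoa4* and *Ftl1*) or without P8 or R1 (*Ncoa4* and *Slc40a1*).

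Of 11 tested regulators, 0 passed both thresholds and 0 had an unadjusted limma *p* under 0.05, with a median log2 fold change of 0.03. Both thresholds were passed by 7.29% of all genes tested, and the *p* threshold alone by 12.8%. *Gata1*, the erythroid factor that binds GATA sites, had 0.40 (SE 0.20, limma *p* = 0.0637, exact permutation *p* = 0.111), *Zfpm1*, its cofactor, 0.18, and *Eif2ak1*, the heme-regulated kinase that slows globin translation when heme is short, 0.14. The iron regulatory proteins that bind the element shown above are encoded by *Aco1* and *Ireb2*, whose log2 fold changes were -0.09 and -0.20 (exact permutation *p* = 0.254 and 0.214). *Gata1* was called higher in AIWG-P, as 1 of 11, when P3 or R1 was left out.

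Of the genes of heme export, recycling and degradation, 5 of 8 tested were higher in AIWG-P and 0 lower, with a median log2 fold change of 0.44. By the same rule 4.06% of all genes tested were higher and 3.23% lower. *Hebp1*, a heme-binding protein gene, had 0.73 (SE 0.20), *Blvrb*, biliverdin reductase B, 0.71, *Abcg2*, a porphyrin exporter gene, 0.60, *Slc48a1*, the lysosomal heme transporter, 0.50, and *Blvra*, biliverdin reductase A, 0.38. For *Hebp1*, *Abcg2* and *Blvra* all 5 AIWG-P mice were above all 5 AIWG-R mice, as for 1.11% of all genes tested, and the exact permutation *p* was 0.00794, the smallest this design allows. *Hebp1* was at least 168.1 in AIWG-P mice and at most 167.04 in AIWG-R mice, so the cohorts nearly met. Without P8 the count was 3 of 8, since *Blvra* and *Slc48a1* lost their calls, and *Blvra* also lost its call without P7 or R2, and *Slc48a1* without P1, R4 or R9.

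**Figure D5:**
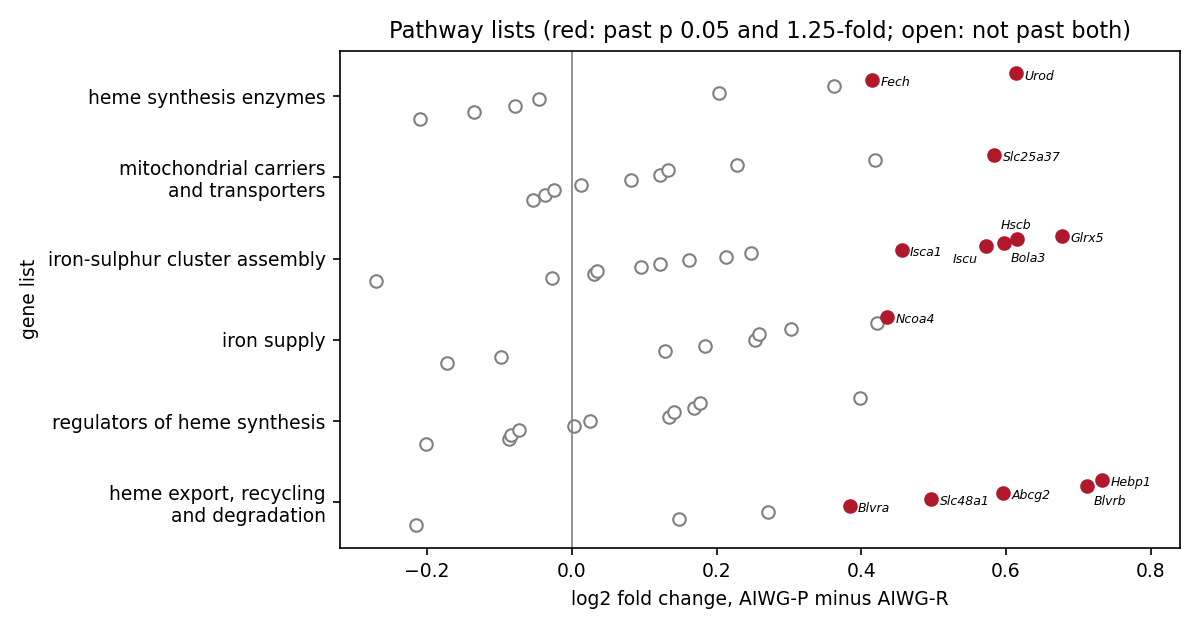
Log2 fold change (x axis, AIWG-P minus AIWG-R) of every tested gene of the enzyme list and of the 5 lists around it (rows). Filled red points with names passed both thresholds, all of them above 0, and open points did not. The enzymes hold 2 named points of 8 and the export, recycling and degradation list 5 of 8, where 4.06% of all genes tested were called higher.

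The red cell membrane level went with most of these calls, as it did with *Urod* and *Fech*. In the fit that adjusts for the mean of that list, 0 enzyme genes were higher, and 0 of the carriers, 0 of the iron-sulphur assembly genes and 0 of the iron supply genes passed, while *Blvra* and *Abcg2* of the export, recycling and degradation list did. That fit called 1.24% of all genes tested higher, against 4.06% with no covariate. *Blvra* and *Abcg2* lost their calls when the scaling totals excluded the globins. Without P8 and R9 together, a pair left out after the data had been seen, *Urod* was called (log2 fold change 0.35) and *Fech* was not (0.23), and the counts of higher genes were 0 of 10 carriers, 4 of 14 assembly genes, 1 of 9 supply genes and 3 of 8 export, recycling and degradation genes. The supply gene called there was *Slc40a1*, which encodes the iron exporter ferroportin, and not *Ncoa4*. Of the red cell membrane genes 8 of 16 were higher without this pair. The share of all genes called without this pair is not given here. Lower counts there are therefore not set apart from fewer calls over all genes. The part of red cell RNA in these differences was not tested.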

How the data were processed

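RNA from whole blood was sequenced on an Illumina NovaSeq from TruSeq libraries. Per the study's methods, Bowtie2 aligned the reads to mouse transcripts, RSEM counted reads per gene and limma was used for testing; the submitters' processing notes add mm9. The versions and the normalization used are, in the labels and the methods, not given. Per gene and mouse, the authors deposited 1 normalized signal value (10431 genes), whose scaling is not described (whole multiples of 1 step in each mouse) and which was not treated as a raw count; interval and depth limits from counting were therefore not computed. Their columns of cohort means, fold changes, log2 ratios, p-values and q-values were not used. The number of per-mouse columns left out is 0.

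Values were taken to log2 after adding a pseudocount of 1, and 2 genes that did not exceed 1 in 5 or more of the 10 mice were removed, so that fold changes of low genes are slightly understated. limma 3.58.1 (R 4.3.3, with a trend of variance on mean) compared the cohorts with no covariate; single genes also had a two-sided exact permutation test, whose smallest *p* is 0.00794. Correlations used 100000 resamples and two-sided permutation tests (scipy 1.17.1, Python 3.11.15). Scripts were tested on simulated data. Each sample was read as 1 mouse and the mice were the replicates; the second number of the titles (3 or 4), of unknown meaning, served as a covariate in an alternative. The enzyme and gene lists were chosen with earlier results of these data known. The genes named are the 8 enzymes, every member of another pathway list past both thresholds, the 3 with the smallest *p* in each, and the 3 genes most like each enzyme, of which some are not reported here; others are marked. List symbols were matched by Entrez ID, and all 8 enzymes matched RefSeq. Of the listed genes, 3 of 14 regulators, 1 of 9 export, recycling and degradation genes, 2 of 6 globins, 3 of 10 neutrophil and 2 of 5 eosinophil genes were not analysed here. Alternatives were quantile and trimmed-mean normalization, globins left out, no trend, other filters, a pseudocount of 0.1, fold thresholds of 0.75 or none, each mouse left out in turn, a replicate block, and the red cell list as a covariate. Promoters, genes and the iron-responsive element were read from RefSeq (GRCm38.p6) and GENCODE M21 (GRCm38), a later build than mm9, and no coordinate of the deposited table was used.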

Additional observations from a re-analysis of the deposited data

Results flagged for a closer look

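In 54 groups of 5 mice (27 named genes in each cohort), 1 had a mouse that stood apart from the other 4 by Dixon's 95% criterion, where chance alone flags about 1 group in 20. *Hebp1* in AIWG-P was 234 in P1, against 168.1 to 186.0 in the other AIWG-P mice, and the gap to the nearest of them was 0.731 of the range of the cohort. None of the 16 groups of the 8 enzymes was set apart in this way.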

How the results depend on the processing

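The count of enzymes higher in AIWG-P, 2 as reported, was 1 after quantile normalization, 1 when the scaling totals excluded the globins, 1 without P8 and R9 together (added after seeing the data), 0 after adjustment for the red cell list, and 1 to 2 with each mouse left out in turn. Adjustment for the red cell list left 1.24% of all genes tested called higher, against 4.06% as reported. The count lower in AIWG-P, 0 as reported, was 1 (*Ppox*) with globins left out, where the genes called lower went to 1212 of 10429 (11.6%), against 337 as reported, and those called higher to 162, against 423, and 1 (*Ppox*) with the red cell covariate, and 0 with each mouse left out. With the red cell covariate the log2 fold changes of 5 called genes turned negative: *Fech* -0.0767, *Slc25a37* -0.0159, *Isca1* -0.0031, *Ncoa4* -0.0527 and *Slc48a1* -0.0873; the cause was not tested. After quantile normalization *Alas2* had 0.00, since its rank was the same in every mouse, and *Fech* 0.01. Over its alternatives *Urod* ran from 0.06 to 0.70 and was called in 22 of 23, *Fech* from -0.08 to 0.52 and in 12 of 23, and *Ppox* from -0.41 to -0.05. These alternatives include the replicate block, whose cohort difference rests on P1, P8, R1 and R8 only. *Alas1*, *Alas2*, *Alad*, *Uros* and *Cpox* did not pass under any alternative run. For the other 19 genes named from the pathway lists, 381 results kept their side of the thresholds, 39 lost a call, 11 gained one and 4 of called genes turned negative. A change of sign in a gene that was not called counts among the 381, such as *Eif2ak1*, at 0.14 as reported and -0.0028 with globins left out.

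The mice share the numbers 1 and 8 between cohorts, but only as a number; deviations of the same-numbered mice correlated at 0.116 and 0.327. A replicate block absorbs every mouse whose number occurs in only 1 cohort. Its cohort difference therefore rests on P1 against R1 and P8 against R8. With that block, *Urod* had 0.67 and *Fech* 0.40, and the counts of enzymes were 2 higher and 0 lower. *Slc25a39*, *Ftl1* and *Gata1* were called higher and *Ireb2* and *Bach1* lower, and *Blvra* and *Hebp1* lost their calls. Such a fit cannot show whether calls hold over all 10 mice. *Blvra* also lost its call with the label number as a covariate. In every mouse, dividing the 10431 values by 1 step gave whole numbers for all of them (tolerance 0.02), as counts scaled by 1 factor would. The sources used here do not say how they were scaled, they were treated as normalized values, and the planned count-based test was not run. Further, *Alad*, *Uros* and *Cpox* gave no value under the filter of 100. With 5 mice in each cohort, intervals such as that of *Alas2* leave differences of both signs possible.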
